A study of Mus musculus with 3 samples.

Results

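Broad shared accessible domains were regions of mouse liver hepatocyte chromatin in which every one of 3 ATAC-seq libraries had a single called peak of 2500 bp or more. Overlapping peaks of the libraries were merged, and merged regions on chromosomes 1 to 19 were kept where each library reached that length. The rule kept 64 regions of the 83845 autosomal regions with a peak of all 3 libraries, which is 0.0763%, out of 136256 merged autosomal regions in total. The domains covered 192.502 kb. The members were thus chosen by peak length in these same libraries, and their lengths, heights and summit numbers are given as a description, without a test.

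In ATAC-seq the transposase Tn5 inserts sequencing adapters where chromatin is open. All 3 libraries are labelled as 1 group, EV: hepatocytes from the liver of wild-type (WT) mice that had received AAV8-TBG-Cre by retro-orbital injection, taken 4 days later. The TBG promoter drives Cre recombinase mainly in hepatocytes, and the age of the animals is not given in the labels. Whether each library is a different animal is not stated in the labels, and their spread may therefore be technical. Libraries of the Sox4 virus of this series were not analysed here.

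The lists held 108997, 119230 and 110455 peaks from 96066404, 116147036 and 117450440 tags. The library labelled EV replicate 2 stood apart at Sox4, with a highest pileup of 2544 there against 128 and 134 in replicates 1 and 3, which goes against its label in a series whose other virus carries Sox4. Whether the label is right was not settled here, so the statements on 3 EV libraries rest on it and the main counts are also given without this library. At least 1 gene end with a shared region was found for 29 of 29 hepatocyte function genes and for 22 of 22 hepatocyte transcription factors, against 66% of all autosomal protein-coding genes. It was also found for every gene of the immediate early and stress, signalling feedback and housekeeping lists, and for 7 of 10 neuronal genes. The same held for 10 of 16 cholangiocyte, 7 of 16 endothelial, 7 of 14 stellate cell and fibroblast, 4 of 15 Kupffer cell and macrophage and 3 of 14 lymphocyte markers. Values given as a series of 3 stand for replicate 1, the library labelled EV replicate 2 and replicate 3, in that order.

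Most accessible sites are short gaps between nucleosomes where transcription factors or the start of a gene keep the DNA free. Wider stretches occur at promoters rich in CG dinucleotides (CpG islands), at clusters of enhancers, and along genes that are transcribed at a high rate. The liver secretes most plasma proteins, and its identity is kept by factors such as HNF4A, FOXA and C/EBP proteins.

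Start sites of 35 genes lay inside 31 of the domains, in the RefSeq promoter and gene tables (assembly GRCm38.p6, which has the same coordinates as mm10). The 250 bases before the start of 5 of them are shown because they span the range of base composition among the domains. Kmt2c had the most GC boxes in these 250 bases. In the window of 300 bases that also takes in the 50 after the start, Phf2 had the most CG dinucleotides, Mst1 the fewest, and Cflar the lowest GC content. Fam32a had the longest domain with a start site inside. Capitals mark the GC box, bound by Sp and KLF factors and searched as GGGCGG on both strands, and the CCAAT box, searched as CCAAT on both strands; neighbouring matches can overlap.
Phf2, chr13:48870886-48871135, minus strand: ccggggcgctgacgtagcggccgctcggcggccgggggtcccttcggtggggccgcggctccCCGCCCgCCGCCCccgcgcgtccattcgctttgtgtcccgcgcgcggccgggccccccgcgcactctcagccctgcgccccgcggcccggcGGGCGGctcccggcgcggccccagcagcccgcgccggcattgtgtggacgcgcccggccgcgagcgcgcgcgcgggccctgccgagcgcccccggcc
Kmt2c, chr5:25498784-25499033, minus strand: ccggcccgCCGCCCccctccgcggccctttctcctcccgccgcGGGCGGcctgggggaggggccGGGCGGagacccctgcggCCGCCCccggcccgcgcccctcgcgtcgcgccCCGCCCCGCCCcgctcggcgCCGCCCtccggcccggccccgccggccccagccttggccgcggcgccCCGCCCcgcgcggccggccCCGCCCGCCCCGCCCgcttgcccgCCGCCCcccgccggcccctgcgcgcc
Mst1, chr9:108080186-108080435, plus strand: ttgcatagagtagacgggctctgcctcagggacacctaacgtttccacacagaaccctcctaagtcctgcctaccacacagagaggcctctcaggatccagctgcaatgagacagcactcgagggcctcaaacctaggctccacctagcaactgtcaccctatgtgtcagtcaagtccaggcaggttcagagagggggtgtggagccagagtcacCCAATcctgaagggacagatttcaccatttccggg
Fam32a, chr8:72219495-72219744, plus strand: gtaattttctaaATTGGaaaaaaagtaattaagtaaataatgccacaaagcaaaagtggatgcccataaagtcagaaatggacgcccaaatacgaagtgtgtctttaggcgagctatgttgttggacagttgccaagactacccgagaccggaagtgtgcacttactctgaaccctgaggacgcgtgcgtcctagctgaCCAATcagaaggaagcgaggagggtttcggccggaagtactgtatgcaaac
Cflar, chr1:58711241-58711490, plus strand: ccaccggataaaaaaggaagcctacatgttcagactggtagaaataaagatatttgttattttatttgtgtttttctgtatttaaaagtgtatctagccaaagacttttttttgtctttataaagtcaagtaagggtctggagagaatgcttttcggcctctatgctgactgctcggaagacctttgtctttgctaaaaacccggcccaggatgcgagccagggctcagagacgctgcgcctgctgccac

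The sequences differ widely. The Kmt2c sequence held 12 GC boxes and 48 CG dinucleotides, and that of Phf2 held 3 GC boxes and 50 CG dinucleotides. The Mst1 sequence, before a gene for a plasma protein made by hepatocytes, held 4 CG dinucleotides, no GC box and 1 CCAAT box. Fam32a had 2 CCAAT boxes and no GC box, and Cflar had neither. The Mst1 domain also holds the start of Rnf123, whose sequence held 19 CG dinucleotides, and the longest Fam32a peak took in the Fam32a start only in the library labelled EV replicate 2.

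MicroRNA genes lay in or within 1000 bp of 4 of the domains, and the 5′ arm of each is shown because it names a further transcript at the domain. How many other shared regions lie as near to a microRNA gene was not counted, so this number shows no preference. Mature sequences from RefSeq are printed with the seed, bases 2 to 8, in capitals. The miR-7653 and miR-3569 genes lay inside the Nek8/Tlcd1 and Kmt2b/Zbtb32 domains. The 5′ arm of miR-7088 lay 196 bp from the Mst1/Rnf123 domain. The 5′ arm of miR-21a, an abundant microRNA encoded at the 3′ end of Vmp1, lay 974 bp from the Vmp1 domain and its 3′ arm 936 bp. No seed is shared by any of the 4 sequences.
mmu-miR-7653-5p: uAAGGGGCggacagacagacgg
mmu-miR-3569-5p: uCGGAGGAgagcagaccggug
mmu-miR-7088-5p: gCAAGUGGuggugaggaggggaaac
mmu-miR-21a-5p: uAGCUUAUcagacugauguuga

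The domains formed the far end of a continuous distribution of length. The median longest peak was 2776.5, 2764 and 2761.5 bp (mean of medians 2767 ± 8.04 bp, SD, n = 3), against 623, 631 and 618 bp in the 83781 other shared regions. Shared regions whose peaks all reached 2000 bp but not all 2500 bp numbered 448, and are called the next shorter regions. Just inside the threshold, by the library where they were shortest, were Gm46608/Qk at 2517 bp, Cflar at 2518 bp, Vegfa at 2532 bp, Cdc42ep5/Leng8/Leng9 at 2537 bp and Maf at 2550 bp. Just outside were Sntb1 and a region 36285 bp from Pik3ap1, both at 2495 bp, Sspo/Zfp467 at 2492 bp, Fnbp1l at 2485 bp and Arid1b at 2483 bp. No gap separated the domains from the regions below the threshold.

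**Figure D1:**
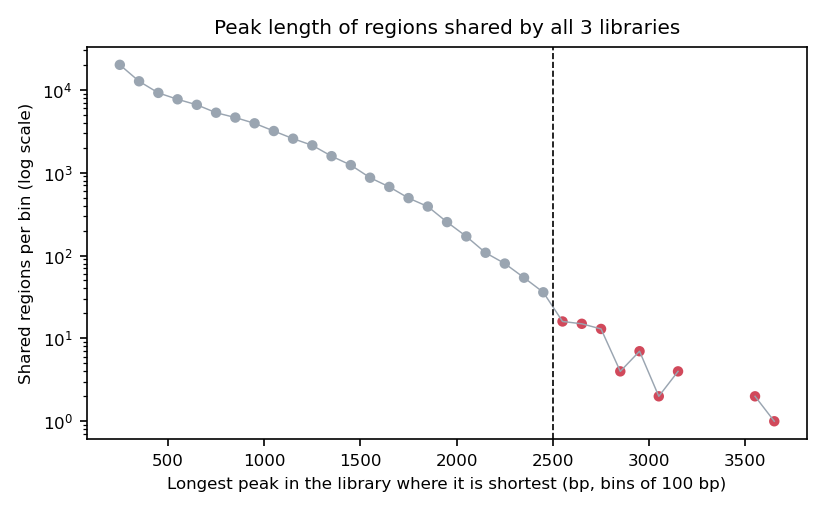
Number of regions shared by all 3 libraries (y axis, log scale) in bins of 100 bp of the longest peak in the library where it is shortest (x axis, bp). Red points are the 64 domains at or above the dashed 2500 bp threshold. The counts fall across it, from 36 regions in the bin just below to 16 in the bin just above. Beyond it they are small and uneven, with no region between 3200 and 3499 bp, and empty bins are not drawn.

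Each library alone had more long peaks than the domains show. Regions with a peak of 2500 bp or more numbered 165, 169 and 145, and 38.8%, 37.9% and 44.1% of them reached that length in every library. Of the regions that fell short in 1 library only, 9 did so in replicate 1, 38 in the library labelled EV replicate 2 and 20 in replicate 3. The median length in the library labelled EV replicate 2 at its 38 regions was 2061.5 bp. Without that library 102 domains met the rule, against 73 without replicate 1 and 84 without replicate 3. A rule over fewer libraries always keeps at least as many regions.

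Among the 64 domains the libraries mostly outlined the same stretch. The rule kept only regions long in every library. Likeness in length, and the small SD of the medians given above, partly follow from that choice. In 53 domains the longest and the shortest of the 3 peaks differed by a factor under 1.1, and in 47 the 3 peaks shared 90% or more of the merged region. In 55 domains every library called 1 unbroken peak. Among the widest differences were those at Eef1a1/Mto1 (3136, 3609 and 2608 bp), Necab2/Osgin1 (2672, 3478 and 2668 bp), Cpeb2 (3199, 3207 and 2567 bp) and Gm46608/Qk (2527, 3119 and 2517 bp). In the Necab2/Osgin1 and Gm46608/Qk domains the library labelled EV replicate 2 had the long peak and the others were nearly equal.

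**Figure D2:**
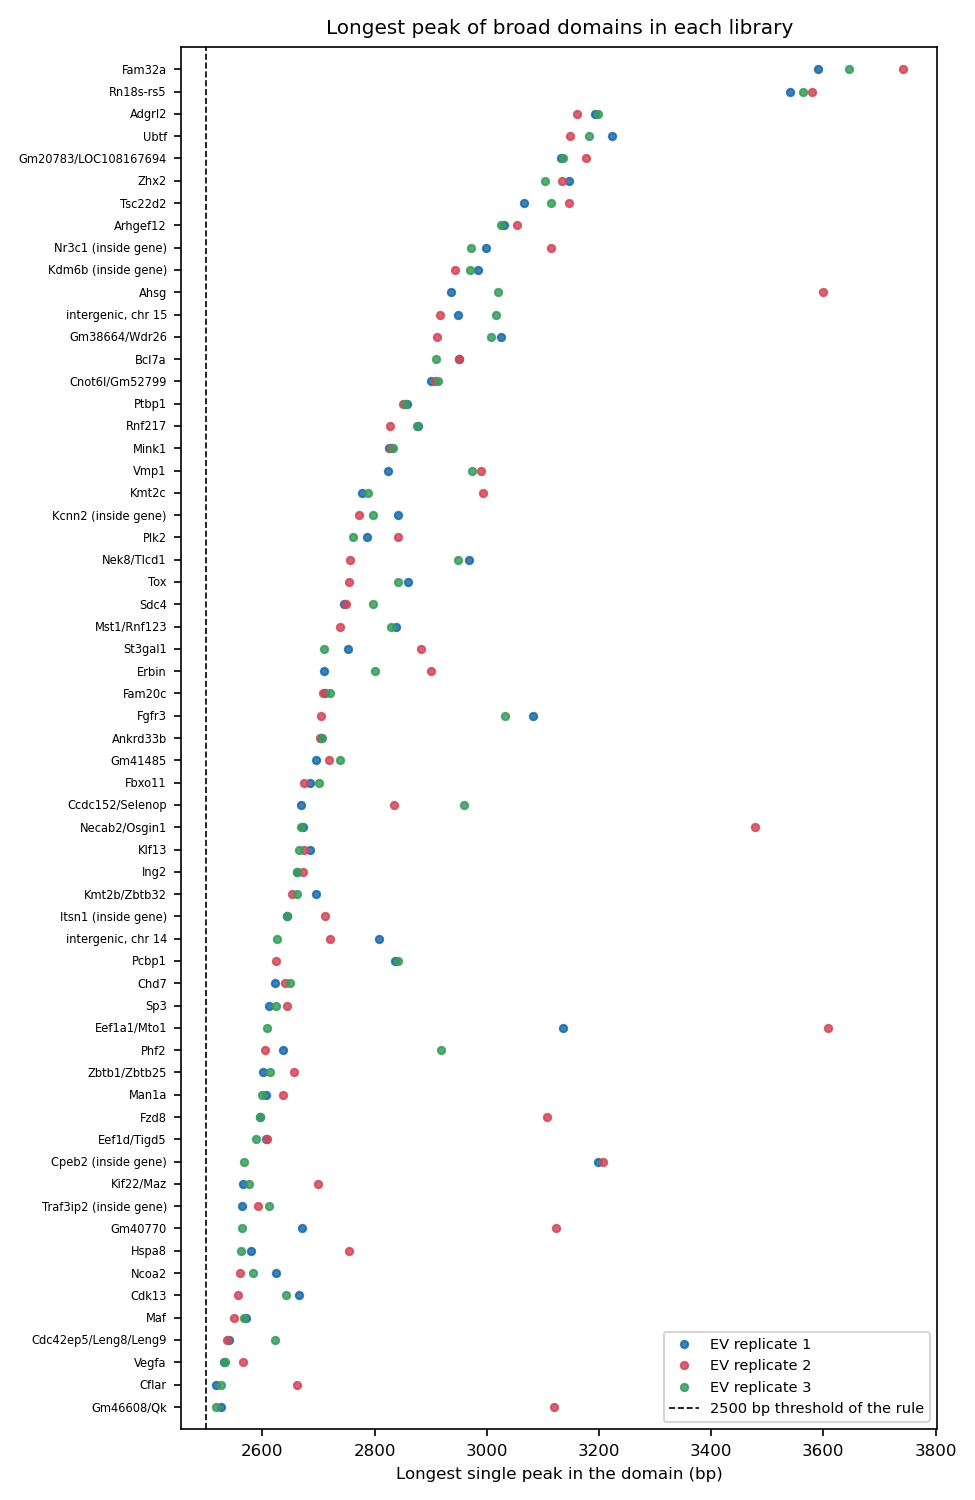
Length in bp (x axis) of the longest single peak in each domain shown (y axis, ordered by the shortest of the 3), with 1 point for each library; the dashed line is the 2500 bp threshold. Fam32a and Rn18s-rs5 lie above 3500 bp in all libraries, and most domains have their 3 points close together.

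Inside a domain the accessible stretch was made of several summits, the local maxima of cut density. The longest peak held a median of 6 summits in each library, with ranges of 5 to 10, 4 to 11 and 4 to 10, against a median of 5 in the next shorter regions and 1 in the other shared regions. Neighbouring summits lay a median of 385, 386 and 395 bp apart. The number of summits followed length: the median per kb was 2.25 in the domains, 2.29 in the next shorter regions and 2.33 in the other shared regions. Between 83.4% and 92.9% of the summits of a library lay within 100 bp of a summit of another, over the 6 ordered pairs of libraries. With summits this close, windows of 100 bp on either side take in much of a peak. The share that would match by position alone was not computed.

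The most finely divided domain was that of Adgrl2, the gene of an adhesion G protein-coupled receptor, with 10, 9 and 10 summits in peaks of 3192, 3160 and 3198 bp. Fam32a had 9, 9 and 8 summits, and Zhx2, the gene of a zinc finger and homeobox repressor of fetal genes in the mouse liver, had 9, 8 and 9. The lowest summit of a peak reached a median share of 0.372 of the tallest, over the 64 domains in 3 libraries. How far the tallest summit stood above the next was not measured.

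The domains were tall but not sharply raised over their surroundings. Pileup is the number of overlapping extended tags at a summit, and fold enrichment is the pileup divided by the higher of the genome-wide and the regional background. The highest pileup of a domain had a median of 666, 838.5 and 831.5 tags, against 172, 180 and 205 in the other shared regions. Pileup was not scaled for depth, so ranks within a library are used between libraries. The domains stood at the median percentile 94.1, 95.04 and 94.5 of their lists by pileup, and at 44.7, 52.8 and 48.9 by fold enrichment. The next shorter regions stood at 93.4, 94.996 and 93.7 by pileup, close to the domains, and at fold percentiles of 58.0, 64.9 and 59.5. The regional background is taken over 10000 bp, so a broad signal raises its own background; what part this has in the lower fold of the domains was not tested.

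A group of 11 domains had much lower fold than the rest. They lay between percentiles 4.43 and 24.3, the median of the 3 libraries, and the next domain, an intergenic one on chromosome 15, was at 32.8. This limit was drawn after the values were seen. Among the 11 were Eef1a1/Mto1, Plk2, Necab2/Osgin1, Sdc4, Rn18s-rs5, Hspa8, Fam32a, Vmp1, Ahsg and Ccdc152/Selenop. Their pileup percentiles, with a median of 94.3, were like those of the other 53 domains, also 94.3. The peaks of the 3 libraries shared a median of 76.6% of the region in the 11 and 97.1% in the 53.

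**Figure D3:**
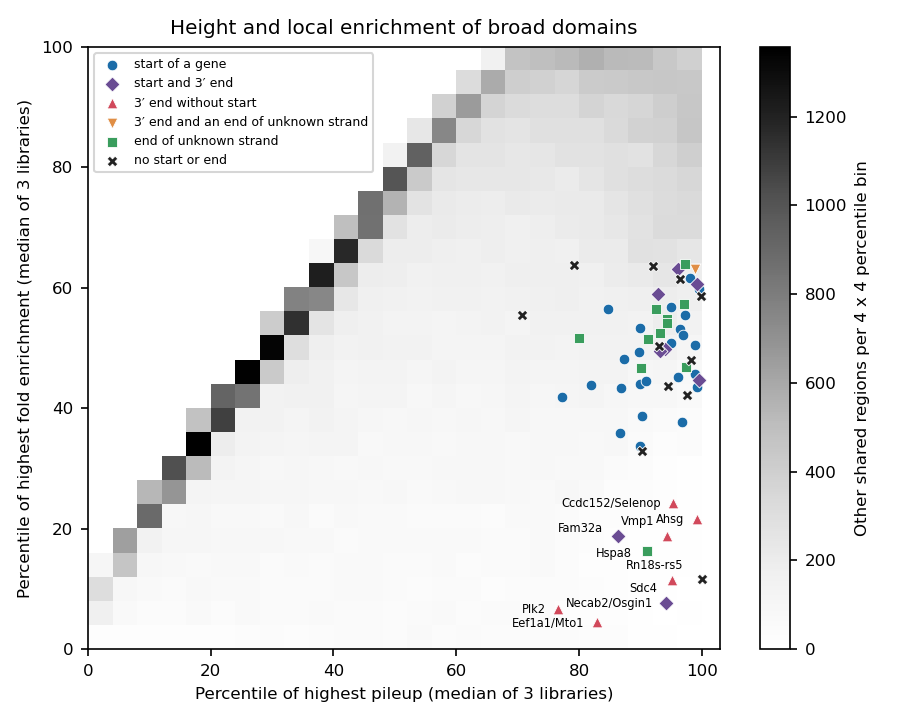
Percentile of the highest fold enrichment (y axis) against that of the highest pileup (x axis), each the median of 3 libraries, for the domains shown, by their position at genes; grey squares count the other shared regions. The named domains lie below percentile 25 in fold at pileup percentiles of 76.6 and above.

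Most of these low, wide domains lay at or past the 3′ end of a gene. The merged Eef1a1 domain ran from 959 to 5028 bp past the end of Eef1a1, the gene of the main translation elongation factor. Its far edge came from the library labelled EV replicate 2. Only in that library did the longest peak reach the 3′ end of the neighbour Mto1. The Vmp1 domain (an autophagy protein of the endoplasmic reticulum) lay 712 to 3712 bp past the gene. That of Plk2, a polo-like kinase induced by stress, lay 311 to 3514 bp past, and that of Sdc4, a cell surface heparan sulfate proteoglycan, 126 to 2927 bp past. All 4 thus began beyond the annotated end.

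At Ahsg, Selenop and Osgin1 the merged domain crossed the 3′ end. The Ahsg domain, at the gene of the plasma glycoprotein fetuin-A, ran from -1235 to 2371 bp relative to the end. The Selenop domain, at the gene of the plasma selenium carrier, ran from -568 to 3315 bp. In replicate 1 and the library labelled EV replicate 2 the longest peak there began past the Selenop end. This domain also lay almost wholly inside Ccdc152, on the other strand, from -3726 to 157 bp relative to the 3′ end of Ccdc152. At Osgin1, an oxidative stress response gene, it ran from -1448 to 2029 bp and also held the start of Necab2. The peaks of the 3 libraries shared 48.6% of the merged region at Ccdc152/Selenop, since replicate 3 had its longest peak nearer the gene than the others.

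**Figure D4:**
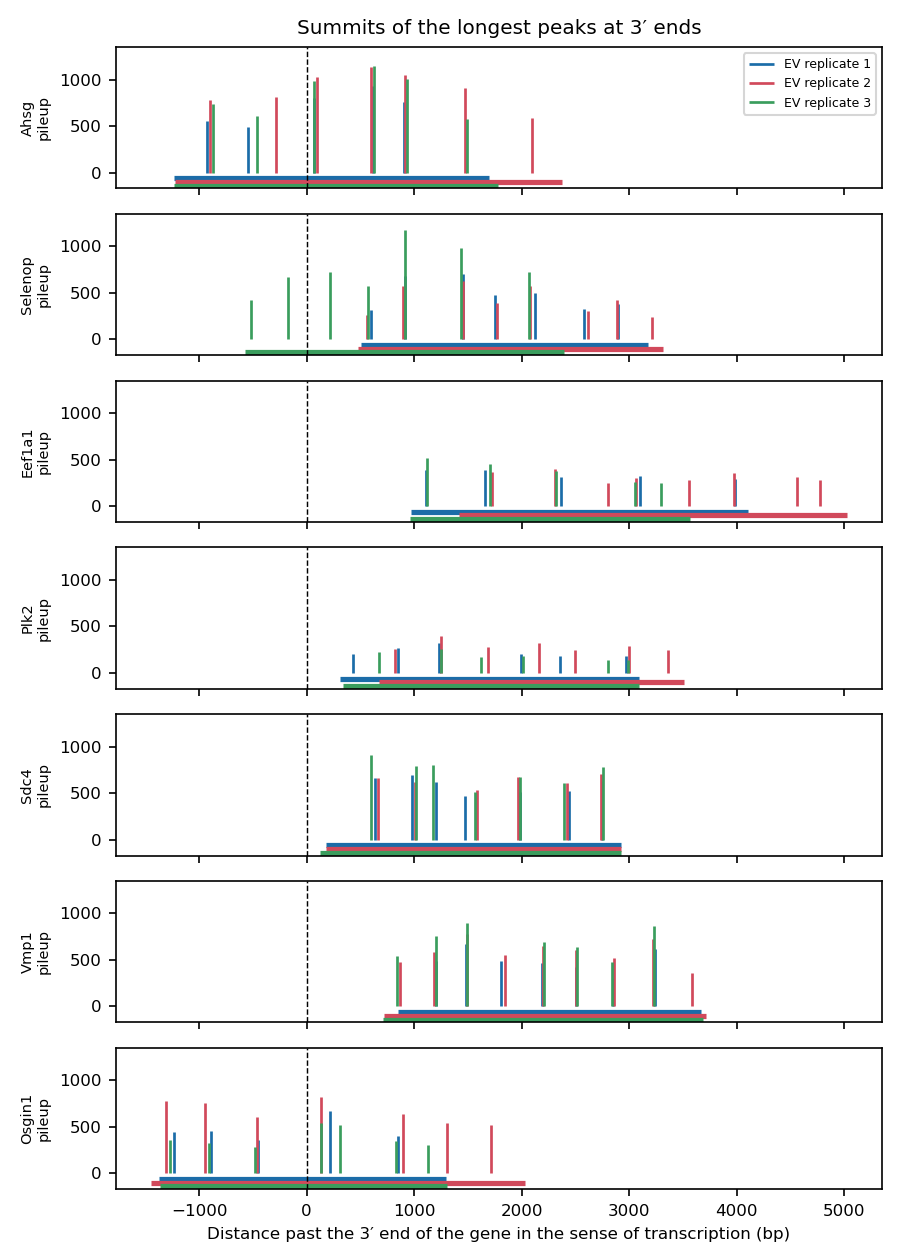
Pileup (y axis, tags) of each summit in the longest peak of 7 domains, by its distance in bp past the annotated 3′ end of the named gene (x axis; dashed line at 0), with 1 colour for each library. The thick bars show the extent of each longest peak; those of Eef1a1, Plk2, Sdc4 and Vmp1 lie wholly past the end, and those of Ahsg and Osgin1 cross it.

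The starts of the same genes had shorter peaks with higher fold. These domains were kept for long peaks and then picked out for low fold, so this order largely follows from those choices. At the Eef1a1 start the longest peak was 1661, 1636 and 1669 bp, with folds of 5.15, 5.40 and 4.805, against 2.14, 2.26 and 2.10 in the domain. At the Plk2 start it was 1449, 1567 and 1413 bp, with folds of 5.86, 6.79 and 6.64, against 2.63, 2.29 and 2.26. At the Vmp1 start it was 1038, 1156 and 1047 bp, with folds of 7.93, 8.47 and 8.56, against 3.20, 2.87 and 3.17. The start and the 3′ domain did not overlap in any library for these 3 genes. The Ahsg start peak of 1358, 1318 and 1327 bp had folds of 4.66, 4.35 and 4.68, against 3.395, 2.69 and 3.29 in the domain. At Sdc4 the folds were 3.21, 4.32 and 3.25 at the start and 2.73, 2.49 and 2.77 in the domain.

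The 7 domains at a 3′ end with no annotated start, a class that includes Kmt2b/Zbtb32, had a median fold percentile of 18.9. The 32 domains at a start had 48.8. The same order held in the next shorter regions, at 16.9 for 17 regions at a 3′ end and 60.5 for 298 at a start, and in the other shared regions, at 52.8 for 2305 and 72.2 for 11497. Kmt2b/Zbtb32 was the exception among the 7, at 63.0, and lay where Zbtb32 ends and Kmt2b has an end of unknown strand. Without the library labelled EV replicate 2, 13 domains were at a 3′ end with no start.

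The Hspa8 domain was also among those of low fold. It belongs to a constitutive heat shock protein of the HSP70 family and lay 765 bp past the higher-coordinate end, outside the gene, with peaks of 2579, 2755 and 2562 bp. The reference gave no strand for this gene, so the end was not named 5′ or 3′.

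Fam32a had its wide signal over most of the body of a short gene. Its domain ran from 186 bp before the start to 4641 bp after it, and its far edge lay at -648 bp relative to the 3′ end. The longest peak was 3590, 3742 and 3646 bp. In the library labelled EV replicate 2 it reached the start, where its tallest summit had a pileup of 822. In replicates 1 and 3 the start had a separate shorter peak, and the long peak over the gene body reached 362 and 446.

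The tallest domain lay at Rn18s-rs5, an 18S ribosomal RNA related sequence on chromosome 17. It ranked at the top of all peaks by pileup in every library, with 8602, 14684 and 11274 tags and peaks of 3541, 3580 and 3564 bp. Its fold was 2.73, 2.54 and 2.79, and 1 other shared region lay within 50 kb. Ribosomal RNA genes are present in many copies and no control library entered the peak calls; the part of this copy number in the pileup was not tested.

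Of the 64 domains, 52 (81.25%, Wilson 95% interval 70.0 to 88.9%) lay within 1000 bp of an end coordinate of a protein-coding gene, against 77.0% of the next shorter regions and 18.1% of the other shared regions. A longer region meets a gene end more easily, so these shares are not at equal length. With the start sites of the promoter table added, 53 domains met a gene: 24 at a start only, 8 at a start and a 3′ end, 7 at a 3′ end without a start and 14 at an end of unknown strand. No listed start or end was near 11 domains. For the 4205 genes without a promoter entry only the outer coordinates were known, so starts inside them were missed. Domains described as inside a gene may therefore hold a start that is not listed. An annotated start was within reach of 32 domains (50%), against 66.5% of the next shorter regions. A 3′ end without a start was within reach of 7 domains, 10.9% (Wilson 95% interval 5.40 to 20.9%). That share was 3.79% in the next shorter regions and 2.75% in the other shared regions, again not at equal length. Without the library labelled EV replicate 2, 50 domains were at a start.

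Measured from the outermost start, domains with start sites on 1 strand often reached further into the gene than before it. Other shared regions at a start were not measured in this way. For genes with several start sites inside the domain the outermost was used. Over the 27 domains with start sites on 1 strand, the domain ran a median of 853 bp upstream and 1927 bp downstream of the start, and 19 of the 27 had more sequence downstream. With the innermost start of each gene, an alternative chosen after seeing the data, 15 of 27 did, with medians of 1096 bp upstream and 1788 bp downstream. Over the 22 genes with 1 start in the domain it was 14. The tallest summit lay within 500 bp of the start for 18, 21 and 18 of the 35 genes. Windows of 500 bp on either side take in much of a domain, and genes that share a domain are counted separately. The share that would lie there by position alone was not computed. Ubtf (upstream binding factor of RNA polymerase I) was open 230 bp before and 2993 bp after its outermost start site, with 5 annotated starts inside. Fgfr3 (fibroblast growth factor receptor) was open 514 bp before and 2582 bp after. Arhgef12 (a guanine nucleotide exchange factor) went the other way, with 1849 bp upstream and 1203 bp downstream. In 4 domains, Nek8/Tlcd1, Zbtb1/Zbtb25, Mst1/Rnf123 and Cnot6l/Gm52799, start sites lay on both strands.

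Promoters inside the domains were rich in CG dinucleotides. The 300-base window from 250 bases before to 50 after the start held a median of 31 CG dinucleotides over 35 genes, against 28 over 326 genes with a start in the next shorter regions, 21 over 9826 genes in other shared regions and 3 over 6269 genes with no shared region. The values ran from 5 at Mst1 to 63 at Phf2, and Mst1 was the only one of the 35 under 10. A GC box was present in 31 of 35 promoters (88.6%), against 76.4% in the next shorter regions, 66.9% in other shared regions and 48.1% of all promoters in the table. The CCAAT box was in 28.6%, against 37.4% in the next shorter regions, 38.4% in other shared regions and 38.8% of all. The TATA box (TATAAA) was in 1 promoter, 2.86%, against 6.13%, 6.66% and 13.3%. GC content differs between these groups too, with medians of 69.7% in the domains and 61.7% in other shared regions, and was not matched. Matches describe letters in this window and say nothing of bound factors.

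**Figure D5:**
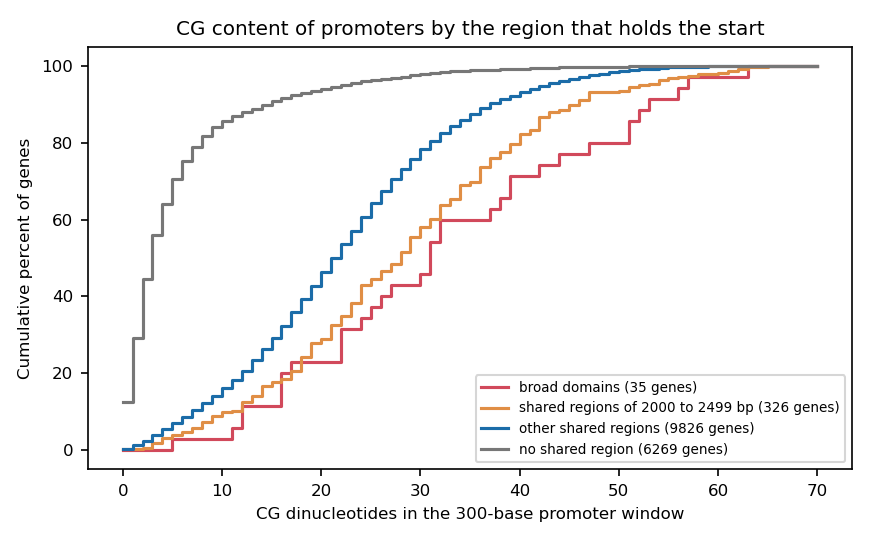
Cumulative percent of genes (y axis) with up to a given number of CG dinucleotides in the 300-base promoter window (x axis), by the kind of region that holds the start. The curve of the 35 genes in domains (median 31) lies to the right of that of other shared regions (median 21) over most of its length, and that of genes with no shared region (median 3) lies far to the left.

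The ends of 66 of 20661 autosomal protein-coding genes, 0.319%, lay at a domain, and 101 did without the library labelled EV replicate 2. Of 29 hepatocyte function genes 1 did, Ahsg, and of 22 hepatocyte transcription factors 1 did. Of 24 housekeeping genes 2 did, among them Eef1a1. With lists this short 1 or 2 genes decide the share. None of 16 cholangiocyte, 15 Kupffer cell and macrophage, 16 endothelial, 14 stellate cell and fibroblast, 14 lymphocyte and 10 neuronal markers had an end at a domain. The same was true of 24 immediate early and stress, 19 circadian clock, 21 insulin, glucose and lipid, 26 signalling feedback and growth control, and 24 developmental transcription factor genes. In the next shorter regions, which held 2.02% of all genes, were Cebpa, Foxa2 and Nr1h4 among the hepatocyte transcription factors and Tdo2, the tryptophan-degrading enzyme of the liver, among the function genes. Breadth by this rule was rare among all genes. The shares of the hepatocyte function and hepatocyte transcription factor lists, 3.45% and 4.55%, rest on 1 gene each. Every gene of both lists had at least 1 end within 1000 bp of a shared region.

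Sorted by what their genes do, a sorting made after the values were seen, 19 domains were at genes of transcription and chromatin. The share of each role among all genes or in other shared regions was not counted. The numbers of domains by role, here and below, therefore show no preference for any role. Their folds ran from 3.93 to 8.44. Among writers and erasers of histone methylation were Kmt2c and Kmt2b, which methylate histone H3 at lysine 4, Kdm6b, which demethylates lysine 27, and Phf2, which demethylates lysine 9. Kmt2c had peaks of 2777, 2993 and 2788 bp and Kmt2b/Zbtb32 of 2696, 2652 and 2662 bp. Phf2 had peaks of 2637, 2604 and 2919 bp at pileups of 311, 413 and 389, among the lowest of the domains. The Kdm6b domain lay in the gene body, 8856 bp from an end.

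Other chromatin proteins in the group were Chd7, a nucleosome remodeller, Bcl7a, a subunit of the BAF remodelling complex, Ing2, a reader of methylated lysine 4, and Ncoa2, a coactivator of nuclear receptors. Cdk13 phosphorylates RNA polymerase II, and its domain was among the tallest, with pileups of 993, 1169 and 1203. Among the DNA-binding factors were Sp3, Klf13, Maz, Maf, Zhx2, Tox, Zbtb1/Zbtb25, Ubtf and Nr3c1. Sp3 and Klf13 bind GC boxes, and Klf13 stood at pileup percentile 99.2 with peaks of 2685, 2674 and 2666 bp.

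The glucocorticoid receptor gene Nr3c1 had its domain inside the outer coordinates of the gene, 27427 bp from the nearest. No listed start lay near it, and whether it holds an unlisted start was not tested. The peaks were 2998, 3115 and 2972 bp with 6, 8 and 7 summits, and pileups of 840, 1076 and 1048. This ranked among the 10 longest domains and lay at pileup percentile 98.3. The receptor mediates the response of the liver to cortisol-like hormones.

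Genes of RNA binding and processing had 5 domains. Ptbp1 and Qk are splicing regulators, Pcbp1 binds poly(C) tracts, Cnot6l is a deadenylase and Cpeb2 binds cytoplasmic polyadenylation elements. Ptbp1 peaks were 2857, 2850 and 2855 bp, nearly the same in every library, with 8, 6 and 9 summits. At Cnot6l/Gm52799 they were 2901, 2907 and 2913 bp, with folds of 7.997, 7.84 and 8.46. Folds in the 5 ranged from 4.78 to 8.46.

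Besides Hspa8 and Eef1a1, genes of translation and protein turnover were Eef1d/Tigd5, Fbxo11, Rnf217 and Gm38664/Wdr26. Eef1d is part of the exchange factor that recharges Eef1a1, and its domain had peaks of 2607, 2608 and 2588 bp with folds of 8.74, 9.004 and 7.95. Fbxo11, Rnf217 and Wdr26 belong to ubiquitin ligases. Their folds lay between 4.85 and 6.95, whereas Hspa8 and Eef1a1 lay between 2.10 and 3.39. Hspa8 and Eef1a1 were in the group picked out above by its low fold, so this difference follows from that choice.

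Genes of signalling and the cell surface accounted for 14 domains. Receptors were Fgfr3, the Wnt receptor Fzd8 and Adgrl2. Vegfa, the endothelial growth factor secreted by hepatocytes, had peaks of 2532, 2566 and 2534 bp and pileups of 760, 988 and 841, and 18 other shared regions lay within 50 kb, the most of any domain. Cflar encodes an inhibitor of caspase-8, and Traf3ip2 an adaptor of the interleukin-17 receptor.

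Further domains of this group were at Arhgef12, Mink1, Erbin, Itsn1, Nek8/Tlcd1, Plk2 and Sdc4. Itsn1, a scaffold of endocytosis, had pileups of 256, 170 and 342, the lowest of the domains in replicate 1 and the library labelled EV replicate 2, in peaks of 2644, 2711 and 2644 bp lying 91617 bp inside the gene. The library labelled EV replicate 2 was the lowest there although it has more tags than replicate 1. Mink1, a kinase of the germinal centre family, had peaks of 2826, 2829 and 2833 bp.

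Secreted proteins and the secretory path had 6 domains. Ahsg, Selenop and Mst1 encode plasma proteins made by hepatocytes, Fam20c a kinase that phosphorylates secreted proteins, Man1a a mannosidase of the Golgi and St3gal1 a sialyltransferase of the Golgi. Mst1/Rnf123 had peaks of 2838, 2738 and 2830 bp with folds of 7.09, 9.21 and 7.32. The Fam20c peaks were 2711, 2708 and 2720 bp, with 5 summits in every library. Folds at Ahsg and Selenop, 2.69 to 3.56, lay below those of the other 4, which ran from 5.37 to 9.21. Ahsg and Selenop were in the group picked out above by its low fold, so this order follows from that choice.

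The other protein-coding genes were Fam32a, Vmp1, Necab2/Osgin1, Kcnn2, Tsc22d2, Ankrd33b and Cdc42ep5/Leng8/Leng9. Tsc22d2 was among the 10 longest with peaks of 3066, 3147 and 3115 bp. Ankrd33b had 2705, 2702 and 2706 bp, the narrowest spread among the domains named here. The Kcnn2 domain (a calcium-activated potassium channel gene) lay in the gene body, 124805 bp from an end.

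No named protein-coding gene, or only predicted ones, lay at 6 domains. Besides Rn18s-rs5 these were Gm20783/LOC108167694, Gm41485, Gm40770 and intergenic regions on chromosomes 14 and 15. Gm41485, with peaks of 2695, 2718 and 2738 bp, was the tallest domain after Rn18s-rs5, with pileups of 1075, 1347 and 1356. The chromosome 14 region, at chr14:46015476-46018297, was the farthest from a gene end, 357333 bp from Ddhd1. Its pileup was 664, 251 and 743, lowest in the library labelled EV replicate 2, with folds of 8.68, 6.60 and 9.36. The chromosome 15 region, at chr15:85669152-85672204, lay 62706 bp from Ppara, the gene of the nuclear receptor for fatty acids, among 17 other shared regions within 50 kb.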

How the data were processed

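ATAC-seq peak lists of 3 libraries of 1 group (EV) were used. Tools named, per the submitters' processing notes, are Bowtie2, Picard, deepTools and MACS2, and the build is mm10. Peaks were called with MACS 2.2.7.1 on each library alone, without a control, per the file headers, with a shift of 100 bp and an extension of 200 bp centred on the cut, duplicates kept, summits called and a q cutoff of 0.05. The signal, the pileup of extended tags at a summit, was deposited by the authors and is not scaled to library size. The −log10 p and q values and the fold enrichment, a ratio to the higher of the genome-wide and the 10000 bp regional background, were deposited by the authors; all are the peaks' own values and only describe or rank peaks within a list. Depth was 96066404 to 117450440 tags; a list holds no value where no peak was called.

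Lines of the same chromosome, start and end were 1 peak. Peaks overlapping by 1 bp or more were merged. The values of a domain are those of its longest peak in a library (length, summits) and the highest in the region (pileup, fold). Gene ends came from RefSeq GRCm38.p6 with a window of 1000 bp; strand was known for the 16456 of 20661 autosomal protein-coding genes with a promoter entry. The 14 gene lists, with 274 entries matched on autosomes, the domains and the named genes were chosen with earlier results of these data known. Named were the 10 longest domains, the 5 with most summits, the 5 nearest either side of the threshold, those at listed genes, the 5 with the largest length ratio, the 3 farthest from a gene end and the 5 highest and lowest by pileup; other domains were named to account for the members, and the genes of a few domains are not reported here. The merging was tested on simulated peaks. No test was made, as there is 1 group. Python 3.11.15, pandas 2.3.3 and numpy 2.4.6 were used. Alternatives were the minimum length, the overlap, the merging gap, the q value, the gene window and leaving out each library.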

Additional observations from a re-analysis of the deposited data

How the results depend on the processing

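Of 93 recomputed values 70 stayed within the limits used (1.5 times for counts, the spread between libraries for others) and 23 moved. A minimum length of 2000 bp gave 512 domains with a median longest peak of 2239 bp, 5 summits, 483 genes at a domain, 2 hepatocyte function genes, 4 hepatocyte transcription factors, 330 domains at a start and 24 at a 3′ end without a start. At 3000 bp these were 9, 3178 bp, 7, 8, 0, 0, 5 and 0. Leaving out 1 library gave 73 to 102 domains, medians of 2705 to 2738.2 bp, 74 to 101 genes, 37 to 50 domains at a start and 8 to 13 at a 3′ end; the highest count was in each case without the library labelled EV replicate 2. Requiring the longest peaks to share 50% of their length, merging peaks up to 100 bp apart, a −log10 q of 10 or more, and gene windows of 500 and 2500 bp moved none of these values past the limits. The cause of the moved values was not tested beyond the construction of each setting. No paired analysis was possible because there is 1 group. Absence of a long peak in a library depends on its depth and on the caller's threshold, and 3 libraries limit the precision of every spread given here.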

Other observations

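On the X chromosome, which the rule leaves out, 1 region met the length in every library. It lay at Usp9x, the gene of a deubiquitinase, with peaks of 2517, 2501 and 2539 bp. Among autosomes, chromosome 5 held the most domains, 7, followed by chromosomes 11 and 15 with 6 each.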
